A study of Mus musculus with 6 samples.

Results

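The mouse miR-290 to miR-295 cluster was followed here through 5 mature microRNAs (miRNAs), mmu-miR-291a-3p, mmu-miR-292-3p, mmu-miR-293, mmu-miR-294 and mmu-miR-295, written below without the prefix for mouse. They were selected by name among the 611 mouse miRNAs of an Agilent array, so they make up 5 of 611. Other arms and star strands of miR-290 to miR-295 on the array were kept as context. The RNA came from EB3 cells, an established mouse line of embryonic stem (ES) cells with a 129/Ola background, and each of 6 total RNA samples was hybridised to 1 array in a single colour. By their titles, 3 samples are Activin (-), called control here, and 3 are Activin (+). Activin signals through receptors of the TGF-beta type. The culture text speaks of Activin at 10 ng/ml, 3 days as embryoid bodies and 15 more days on gelatin, with harvest on day 18. That text is the same for all 6 samples, so whether the control cells were differentiated without Activin or kept as stem cells is not stated in the sources used here. All samples came from 1 cell line and nothing says that they were separate cultures, so the spread behind the p-values may be technical.

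A miRNA guides a silencing complex to messenger RNAs that pair with its seed, the bases near its 5′ end, and lowers their output. The cluster is transcribed as 1 precursor in mouse ES cells and the early embryo, where it is among the most abundant miRNAs. Its members with the AAGUGC-type seed are known to speed passage from G1 to S phase, and the cluster is known to decline as ES cells differentiate.

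The sequences are shown because near relatives among the members may share targets and are hard for probes to tell apart. They were taken from RefSeq on assembly GRCm38.p6, where 4 of the 5 members matched, and capitals mark the seed (bases 2 to 8). For miR-292-3p the hairpin of its gene, Mir292, is shown instead, with capitals on the 8-base run, from hairpin base 52, that it shares with the first bases of miR-293. Those capitals begin 1 base inside the hexamer AAGUGC, which the Mir292 hairpin holds 1 time. The hexamer also lies in the AAGUGCU seed of miR-291a-3p, miR-294 and miR-295. In the hairpin it is followed by C, where those seeds have U, so the hairpin does not hold the full AAGUGCU. The mature miR-292-3p was not matched, so its own seed is not given.
miR-291a-3p: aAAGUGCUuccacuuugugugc
miR-294: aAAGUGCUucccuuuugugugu
miR-295: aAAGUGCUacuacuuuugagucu
miR-293: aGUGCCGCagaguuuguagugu
Mir292 hairpin: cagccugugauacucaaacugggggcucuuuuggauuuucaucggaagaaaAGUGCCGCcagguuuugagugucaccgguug

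The seed AAGUGCU was common to miR-291a-3p, miR-294 and miR-295. Position by position, miR-291a-3p and miR-294 had 19 of 22 bases in common, with the first 11 identical. miR-295 had 15 of 22 in common with miR-291a-3p and 12 of 22 with miR-294, and miR-293 had 6 to 9 in common with each of the other 3. Whether the array probes of these near relatives bind each other's targets was not tested.

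All of these sequences lie on the plus strand of mouse chromosome 7 in GRCm38.p6. The mature miR-291a-3p is at chr7:3218968-3218989, the Mir292 hairpin at chr7:3219189-3219270, miR-293 at chr7:3220390-3220411, miR-294 at chr7:3220691-3220712 and miR-295 at chr7:3220815-3220837. The 5 hairpin genes span 1923 bases. In the RefSeq annotation they lie within the span of a long non-coding RNA gene, D7Ertd143e, and of a protein-coding gene, Nlrp12. The array design names an earlier assembly, mm9, and these coordinates were not converted from it.

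Signal here is the background-subtracted spot intensity, averaged over spots and probes of a miRNA. For comparison between arrays it was divided by the array's 75th percentile over probes detected on all 6 arrays and put on the log2 scale ("log2 scaled signal"). That percentile was 249, 616 and 427 intensity units on control 1, 2 and 3, and 570, 177 and 554 on activin 1, 2 and 3. Control 1 and activin 2 were thus the 2 dimmest arrays, one in each group, and they detected 80 and 54 mouse miRNAs against 110 to 119 on the other 4. A miRNA was tested where it was detected on all 3 arrays of a group, which left 79, the 5 members among them. In these bulk samples, fewer cells of a type and less RNA per cell cannot be told apart.

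None of the 5 members passed the test, and all 5 had lower means with Activin, although miR-295 entered the test only through control, the group where it was higher, since 1 activin array did not detect it. Over the 79 tested miRNAs, limma with Benjamini-Hochberg adjustment at 0.05 called 1, or 1.27%, which was miR-302c, higher with Activin. At an unadjusted p under 0.05 it gave 9, of which miR-291a-3p and miR-292-3p were members. limma pooled the spread over the tested miRNAs, so its SEs, intervals and p-values hardly follow the spread of a single miRNA. The median log2 fold change (activin minus control) was -0.43 over the members, 0.19 over the other tested miRNAs and 0.17 over all 79, of which 29 lay below 0 and 50 above. Of the 10 lowest fold changes, 4 were those of members, among them miR-295, which entered the test only through control.

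**Figure D1:**
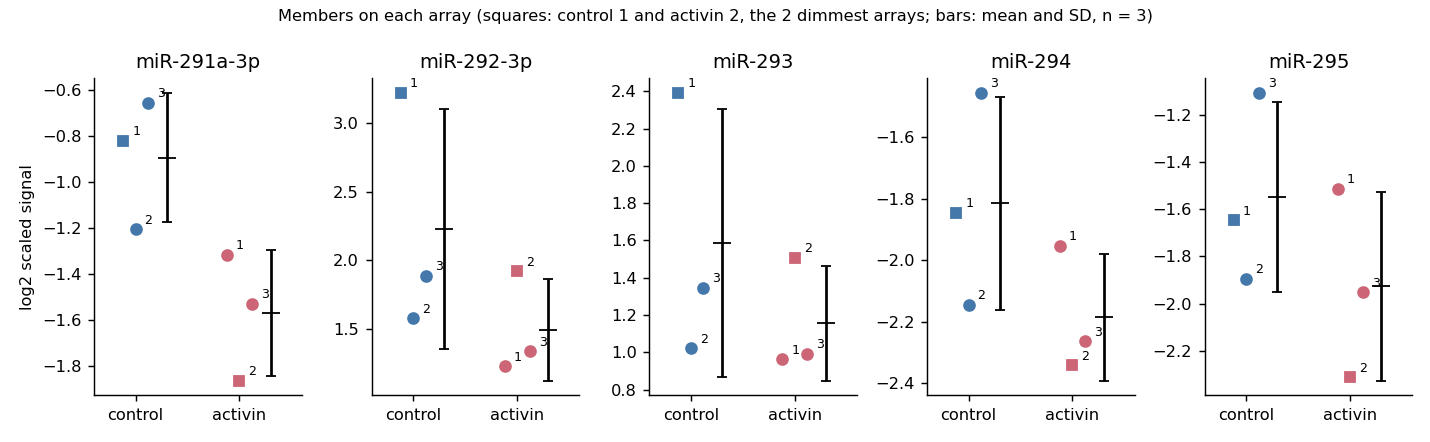
Log2 scaled signal of each member (vertical axis, its own range in each panel) on the 3 control and 3 activin arrays, numbered by replicate, with mean and SD (n = 3) as bars and the 2 dimmest arrays as squares. For miR-291a-3p the highest activin array, -1.32, is below the lowest control array, -1.20, and in the other 4 panels the groups overlap.

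miR-291a-3p, the first of the AAGUGCU-seed members along the chromosome, had log2 scaled signals of -0.82, -1.20 and -0.66 on control 1, 2 and 3. On activin 1, 2 and 3 it had -1.32, -1.86 and -1.53. Every activin array was below every control array. Control averaged -0.89 ± 0.28 and Activin -1.57 ± 0.28 (SD, n = 3 each). Their log2 fold change of -0.67, or 0.627-fold, had an SE of 0.295, a 95% interval from -1.26 to -0.09 and a limma adjusted p of 0.263. Groups that did not overlap and were lower with Activin were found for 5 of the 79 tested miRNAs (6.33%), and 1 of the 5 members was among them. The other 4, miR-10a, miR-1895, miR-714 and miR-720, do not belong to the cluster.

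miR-294, which differs from miR-291a-3p at few positions, had log2 scaled signals of -1.85, -2.15 and -1.45 in control, against -1.95, -2.34 and -2.26 with Activin. Activin 1 lay inside the control range, so the groups overlapped. Its means were -1.82 ± 0.35 and -2.19 ± 0.21 (SD, n = 3 each). The log2 fold change was -0.37, with an SE of 0.295, a 95% interval from -0.95 to 0.21 and a limma adjusted p of 0.589. Without control 3 it was -0.19.

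miR-295, the last member along the chromosome and the third with this seed, had log2 scaled signals of -1.65, -1.90 and -1.11 in control, against -1.51, -2.31 and -1.95 with Activin. Activin 1 was again within the control range and activin 2 was the lowest of the 6. The other 4 members were detected on all 6 arrays, but miR-291a-3p and miR-294 on activin 2 only by their brightest probe. On that array 7 and 5 of their 20 spots, respectively, were well above background. miR-295 was not well above background there by the majority of spots of any probe. The means of -1.55 ± 0.40 and -1.93 ± 0.40 (SD, n = 3 each) gave -0.38 as log2 fold change, with an SE of 0.297, a 95% interval from -0.96 to 0.21 and a limma adjusted p of 0.589. That value takes the signal on activin 2 as measured, below the detection limit. Without control 3 it was -0.16, without activin 1 -0.58 and without activin 2 -0.35.

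miR-292-3p, processed from the hairpin that carries the AGUGCCGC run, had log2 scaled signals of 3.22, 1.58 and 1.89 in control, against 1.23, 1.92 and 1.34 with Activin. Control 1 stood far above the other 5, and activin 2 was above control 2 and 3. Control averaged 2.23 ± 0.87 and Activin 1.49 ± 0.37 (SD, n = 3 each). Their log2 fold change of -0.74 had an SE of 0.303, a 95% interval from -1.33 to -0.14 and a limma adjusted p of 0.216. That SE was mostly pooled over the tested miRNAs and does not reflect the wide spread of this miRNA in control. With no detection filter, the same fold change had an SE of 0.544 and an interval from -2.24 to 0.77. Without control 1 the log2 fold change was -0.24, and without activin 2 it was -1.11.

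miR-293, whose mature form begins with that run, followed the same order of arrays. Its log2 scaled signals were 2.39, 1.02 and 1.35 in control and 0.96, 1.51 and 0.99 with Activin. The means of 1.59 ± 0.72 and 1.15 ± 0.31 (SD, n = 3 each) differed by -0.43, with a 95% interval from -1.02 to 0.16 and a limma adjusted p of 0.529. Without control 1 the difference was -0.03, and without activin 2 it was -0.77, so its size turned on these arrays.

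The members thus varied in 2 sets across the 6 arrays. miR-292-3p and miR-293 had a Pearson r of 0.988 and the same order of arrays (Spearman rho 1). Among miR-291a-3p, miR-294 and miR-295, the r was 0.871 to 0.955, with miR-295 on activin 2 taken as measured. Between a member of one set and a member of the other it was 0.0390 to 0.458. These correlations describe 6 arrays that share a slide and differ in brightness, and no p is given.

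The sets parted on the 2 dimmest arrays. The signal of miR-292-3p was 16.5 times that of miR-291a-3p on control 1 and 13.7 times on activin 2, against 5.82 to 7.27 times on the other 4 arrays. For miR-293 over miR-294, the ratio was 18.9 and 14.4 on those arrays and 6.96 to 9.55 on the others. Within a set, the ratio of miR-292-3p over miR-293 ran from 1.20 to 1.78, and that of miR-295 over miR-294 from 1.15 to 1.36 on the 5 arrays that detected miR-295. Probes bind with different strength, so the level of such a ratio cannot be read. Its change need not be one in the miRNAs, since 2 probes of the same miRNA also changed in ratio on the 2 dimmest arrays. For miR-292-3p that ratio was 4.82 and 4.35 there, against 2.58 to 3.11 on the other arrays. The part of the probes in the change was not tested. On activin 2, miR-291a-3p and miR-294 were detected by their brightest probe alone.

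Against all tested miRNAs, miR-292-3p and miR-293 had the highest and second highest difference between those 2 arrays and the other 4. The differences were 1.06 and 0.87 on the log2 scale, where the median of the 79 was -0.18 and the range -1.41 to 1.06. For miR-291a-3p, miR-294 and miR-295 they were -0.17, -0.14 and -0.36. The 2 arrays were singled out after their brightness was seen, and the comparison carries no test. What part brightness had in the difference between the groups was not tested, but leaving both arrays out gave log2 fold changes of -0.46 for miR-291a-3p, -0.42 for miR-292-3p, -0.18 for miR-293, -0.28 for miR-294 and -0.20 for miR-295, none past the limma threshold.

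**Figure D2:**
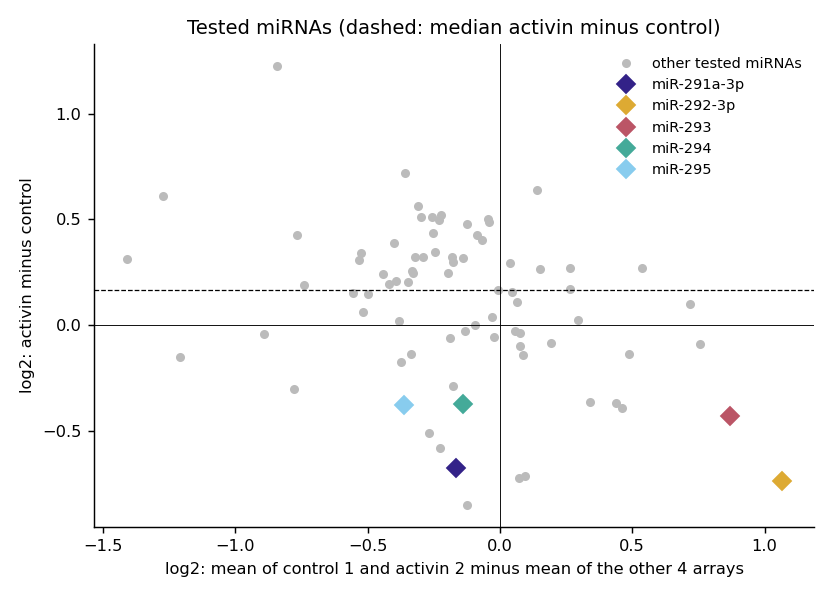
Each point is 1 of the 79 tested miRNAs, with the log2 difference between the 2 dimmest arrays (control 1 and activin 2) and the other 4 on the horizontal axis and the log2 fold change, activin minus control, on the vertical axis. miR-292-3p (1.06) and miR-293 (0.87) are farthest right, the other 3 members are left of 0, and all 5 lie below the dashed median of 0.17.

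Probe by probe the direction was the same wherever a probe was detected throughout. The members are read by 12 probes with 100 spots per array, 20 spots for each miRNA, and 10 of their 600 spots on the 6 arrays were left out as flagged outliers. None was saturated. Of the 12 probes, 6 were detected on all 6 arrays, and all 6 had lower means with Activin, with log2 fold changes of -0.74 to -0.31. None of these 6 reads miR-295, and both probes of miR-292-3p and both of miR-293 are among them. The groups did not overlap for 2 of these 6, the brightest probe of miR-291a-3p and the dimmer probe of miR-292-3p. Probes of a miRNA measure the same RNA and are no replicates of the condition.

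The brightest probe of miR-291a-3p read 331 ± 97.6, 605 ± 92.4 and 602 ± 75.8 intensity units on control 1, 2 and 3 (SD over 6 spots). On the activin arrays it read 513 ± 65.3 and 112 ± 34.6 over 6 spots and 436 ± 14.1 over 5. Before scaling, control 1 and activin 2 were thus the 2 lowest, and scaling brought control 1 up among the controls. The brightest probe of miR-292-3p read 3851 ± 352, 2764 ± 288 and 2276 ± 261 units in control and 1934 ± 210, 1090 ± 78.9 and 2115 ± 152 with Activin (SD over 10 spots). Here control 1, although dim as an array, was the highest of the 6 before any scaling.

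The same probe-level readings for miR-293 were 2320 ± 100.3, 2042 ± 134 and 1685 ± 70.0 on the control arrays (SD over 10, 10 and 9 spots). They were 1687 ± 187, 876 ± 40.7 and 1791 ± 82.0 with Activin (SD over 10 spots). The spot-to-spot coefficient of variation of the detected probes had a median of 17.5% on the 2 dimmest arrays and 8.05% on the others. Spots of an array share its sample, so this spread leaves out that between samples.

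The 2 brightest probes of each miRNA were also compared. For miR-292-3p the brighter probe was 4.82 and 4.35 times the dimmer on control 1 and activin 2, and 2.58 to 3.11 times on the other arrays. For miR-293 the same ratio was 7.91 and 6.61 on those 2 arrays and 3.15 to 4.47 on the others. On activin 2 the dimmer probes of miR-291a-3p, miR-294 and miR-295 were not well above background, so no ratio is given for that array. On control 1 the ratio was 3.83 for miR-291a-3p, 3.17 for miR-294 and 2.75 for miR-295, against 2.96 to 3.30, 2.25 to 2.61 and 2.65 to 2.87 on the other 4 arrays. The excess on the dim arrays was larger in the brighter probe of miR-292-3p and of miR-293 than in the dimmer one.

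**Figure D3:**
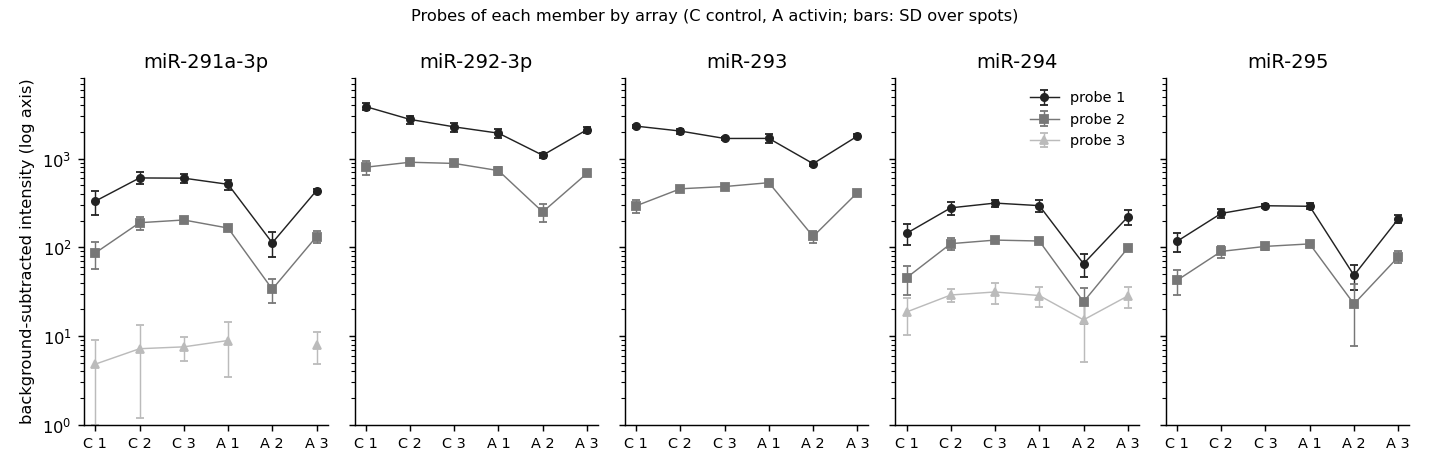
Background-subtracted intensity (log axis) of each probe of each member on control (C) and activin (A) arrays, numbered by replicate, with bars for the SD over spots cut at the axis limit of 1 unit. A value under 1 unit is not drawn, and lines join the arrays only to follow a probe: the brightest probe of miR-292-3p is highest on control 1, 3851 units, while that of miR-291a-3p is down at 331 units there.

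As a share of the total mouse miRNA signal, the 5 members together took 35.4%, 16.8% and 17.9% on control 1, 2 and 3. On activin 1, 2 and 3 they took 13.9%, 16.98% and 14.9%. Activin 2 lay above control 2, so the groups overlapped, and control 1 was far above the rest. They averaged 23.4% ± 10.4 in control against 15.3% ± 1.57 with Activin (SD, n = 3 each), a difference of -8.09 percentage points. Without control 1 it was -2.08 points, and without both dim arrays it was -2.93 points, 17.3% against 14.4%. The sum carries no test, and probes that bind strongly weigh most in it.

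Nearly all of that share, and of its spread, came from miR-292-3p and miR-293, which together took 32.8%, 14.1% and 14.5% of the signal in control and 11.3%, 15.4% and 12.6% with Activin. miR-291a-3p, miR-294 and miR-295 together took 2.61%, 2.62% and 3.41% in control and 2.65%, 1.57% and 2.28% with Activin. Control 1 stood out for the first pair and did not for the other 3.

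Taken singly, the share of miR-291a-3p was 1.27%, 1.22% and 1.48% in control and 1.05%, 0.640% and 0.972% with Activin. These did not overlap, with means of 1.32% ± 0.135 and 0.889% ± 0.219 (SD, n = 3 each), and the exact two-sided permutation test gave p = 0.1, the smallest that 3 arrays against 3 allow. miR-292-3p took 20.98%, 8.41% and 8.61% against 6.14%, 8.79% and 7.07%, with means of 12.7% ± 7.20 and 7.33% ± 1.35 and an exact p of 0.3. The groups overlapped through activin 2 alone.

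miR-293 took 11.8%, 5.72% and 5.91% of the signal in control and 5.12%, 6.62% and 5.57% with Activin, an overlap with an exact permutation p of 0.5. Mean shares of miR-294 were 0.704% ± 0.126 and 0.573% ± 0.110 (exact permutation p = 0.3, n = 3 each). For miR-295 they were 0.852% ± 0.199 and 0.704% ± 0.226 (exact permutation p = 0.5, n = 3 each). This design could not bring any of these p-values under 0.05. Adjusted over the 5 members, the exact permutation p was 0.5 for each, miR-291a-3p included.

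**Figure D4:**
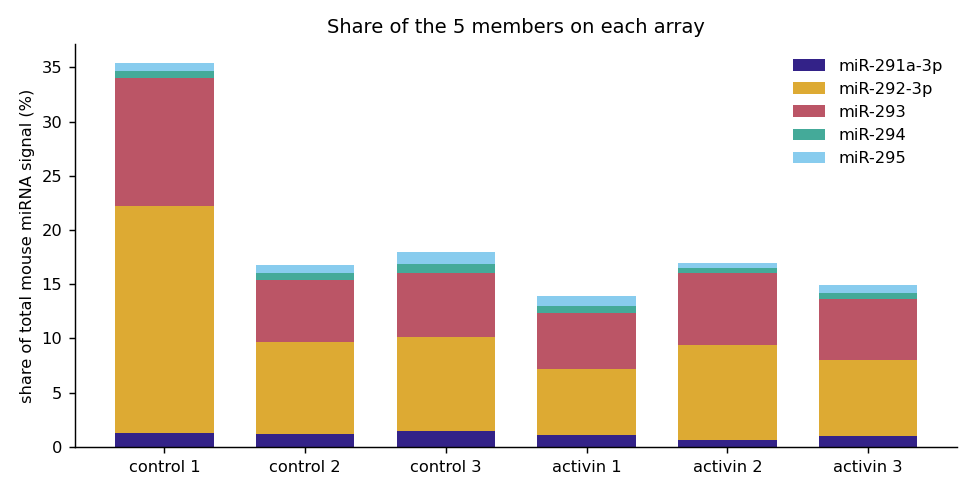
Stacked bars give the share of the total mouse miRNA signal (%) taken by each of the 5 members on each array. Control 1 reaches 35.4% and the other 5 arrays 13.9% to 17.9%; heights of different miRNAs depend on their probes and are not to be ranked as abundance.

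Position on the slide, as the scanner files give it, did not split evenly over the groups. All 3 controls and activin 1 were in row 1, and the other 2 activin arrays were in row 2. Between activin and control arrays of the same column, log2 differences in column 1 (control 1 and activin 2) were -1.04 for miR-291a-3p, -1.31 for miR-292-3p, -0.88 for miR-293, -0.50 for miR-294 and -0.67 for miR-295. In column 2 (control 2 and activin 3) they were -0.32, -0.24, -0.03, -0.12 and -0.06 in the same order. Within row 1, activin 1 differed from the mean of the 3 controls by -0.42, -1.003, -0.62, -0.14 and 0.04. Only the miR-295 value in row 1 was not below 0 among these 15 differences, each of which rests on a single activin array. They are not independent, since control 1 and control 2 enter both a column and the row, and the column pairs cross rows. Between arrays of the same replicate number, miR-292-3p (0.34) and miR-293 (0.49) were above 0 for number 2. miR-295 (0.13) was above 0 for number 1, and the other such differences were below 0.

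**Figure D5:**
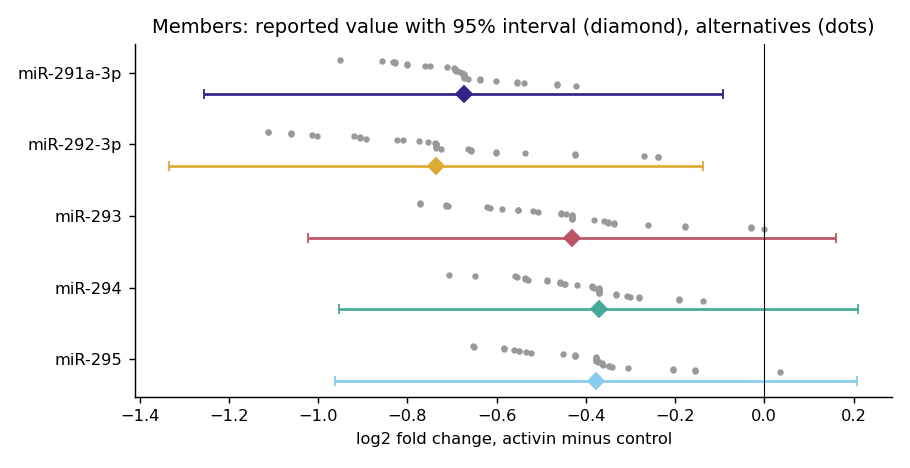
Log2 fold change (activin minus control) of each member as reported, with its 95% interval (diamond and bar), and under each alternative processing or subset of arrays (dots). All dots of miR-291a-3p, miR-292-3p and miR-294 are below 0, 1 dot of miR-293 is at 0 and 1 dot of miR-295 is above 0, at 0.04. Several alternatives give the same fold change, so some dots repeat a value.

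The other arms and star strands of the cluster were near background. By the majority of their spots, 0 of 9 were well above background on any array, and their brightest probe reached 30.7 intensity units. The scanner software's own call, which is more lenient, marked 3 of the 9 as detected, miR-290-3p on 5 arrays and miR-290-5p and miR-291a-5p on 4 each. miR-290-3p had 15.2, 18.3 and 17.4 intensity units in control and 19.0, 11.5 and 18.4 with Activin, which overlap. miR-291b-3p, which has the hexamer AAGUGC in its seed as the AAGUGCU members do, was not detected on any array.

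miRNAs outside the cluster also begin with this hexamer. Searched as AAGUGC on the given strand of the mature sequence, starting at base 1, 2 or 3, it was found in 13 of the 193 array names that matched a RefSeq sequence (6.74%). With miR-291b-3p counted and miR-302a added from its known family, 11 such relatives of the members were on the array, of which 8 were detected somewhere and 4 tested. miR-20a, miR-20b and miR-106b, of the growth-associated miR-17 family, had log2 fold changes of 0.02, -0.03 and 0.06, none past the threshold.

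miR-302c, of the miR-302 cluster that marks later, primed pluripotent cells, was 1.23 higher on the log2 scale with Activin (SE 0.303, limma adjusted p = 0.00597), from -4.08 ± 0.89 to -2.85 ± 0.33 (SD, n = 3 each), and its groups overlapped. Its control signals lay near the floor of the scale, -4.94, and most alternatives lost this call. The 4 tested relatives had a median log2 fold change of 0.04, with 3 above 0, against 0.17 over all tested miRNAs and -0.43 over the members. Their difference from the members was not tested.

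The tested miRNAs outside the cluster whose pattern over the 6 arrays was most like the mean of the members were miR-714 (Pearson r 0.968, Spearman rho 0.886), miR-1895 (r 0.882), miR-689 (r 0.849), miR-135a-1* (r 0.655) and miR-1224 (r 0.579). On activin 2, miR-1895 lay at the floor of the scale, -4.94, so its r rests in part on a floored value. miR-714 had log2 scaled signals of -3.27, -4.02 and -3.41 in control, against -4.11, -4.45 and -4.28 with Activin. Like miR-291a-3p, its groups did not overlap. On activin 2 miR-714 was at its lowest, where miR-292-3p and miR-293 were above control 2 and 3. The mean joins the 2 sets of members, so likeness to it need not hold for either set. miR-1224 was, after miR-292-3p and miR-293, the tested miRNA with the highest difference between the 2 dim arrays and the other 4, at 0.76.

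Markers of other states and cell types were read on the same arrays. The miR-302 and miR-367 list, the other pluripotency cluster, had all 5 of its miRNAs detected on some array and none on all 6, with a summed share of 0.439% to 1.29% in control, against 0.781% to 1.65% with Activin. Of the let-7 family, which accumulates as cells differentiate, 7 of 8 were detected on all arrays, and the summed share was 5.76% to 9.85% in control, against 6.28% to 8.44% with Activin. The mesenchymal list had 4 of 6 detected, with 3.98% to 6.87% and 6.35% to 7.64%. All of these ranges overlap between the groups, and let-7 and the cluster were detected together in both.

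Ranges that did not overlap were those of striated muscle, with 1 of 4 detected (miR-133b), at 0.113% to 0.139% in control and 0.185% to 0.262% with Activin, and of endothelium, with 1 of 2 detected (miR-126-3p), at 0.0900% to 0.265% and 0.280% to 0.398%. In both lists 0 miRNAs were detected on all 6 arrays. Of the liver, gut and islet list, 0 of 6 were detected, at 0.0616% to 0.107% in control and 0.105% to 0.12% with Activin. The blood list had 0 of 6, at 0.108% to 0.188% in control and up to 0.187% with Activin. Its control range holds that of striated muscle. The neural list had 2 of 4 detected, at 0.139% to 0.458% and 0.235% to 0.321%. The epithelial list had 3 of 5, at 0.488% to 0.746% and 0.629% to 0.963%. The ranges of these other lists overlap between the groups. Whether muscle or endothelial markers differed between the groups was not tested. The part of these lists in the lower means of the members was not tested.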

How the data were processed

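The deposited scanner files hold spot intensities, background-subtracted by Agilent Feature Extraction (10.7.3.1 per the file headers, 10.1.1 per the submitters' processing notes). The deposited series table held the same intensities (largest difference 0). Per the labels' protocols, 100 ng of total RNA was labelled with Cy3.

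Spots without outlier flags were averaged per probe, and probes per miRNA. Arrays were divided by the percentile 75 over 59 probes detected on all 6 arrays, floored at 0.0326 and converted to log2. No member value lay at the floor. A probe was detected where over 0.5 of its spots were well above background. limma 3.58.1 (R 4.3.3, lmFit and eBayes, two-sided) compared the groups over all 79 tested miRNAs and had been tested on simulated data. The simulation gave all miRNAs the same spread and, where not 0, effects larger than those of the members. It thus does not show how well limma calls effects of the members' size. The 194 prior degrees of freedom of the limma fit make SEs nearly equal. The normexp alternative used median spot signals, because mean signals are not among the columns used here. The number of arrays limits the precision.

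The members and lists were chosen with earlier results of these data known. All members were named, with the 5 most similar tested miRNAs by Pearson r and up to 4 tested relatives sharing the hexamer.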

Additional observations from a re-analysis of the deposited data

How the results depend on the processing

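The members' direction was mostly kept and their significance never reached. Over 164 alternative member values, 162 were below 0, and limma called 0 (lowest adjusted p 0.127, for miR-292-3p without control 2). These values are not independent, since all reuse the same 6 arrays. The series table, a floor at 2 times, other detection filters and the replicate block left the members' fold changes as reported. The fits on the same miRNAs repeated the members' fold changes of the matching subsets of arrays. miR-293 was at 0 with quantile scaling, and miR-295 was 0.036 with slide row as a block (adjusted p = 0.982). Scaling and background choices moved the median of all tested miRNAs from -0.31 (normexp) to 0.24 (total signal), with 0.17 as reported. All 5 members stayed below that median except miR-293 with normexp, at 0.05 above it, and miR-295 was not tested among miRNAs detected on all 6 arrays. The members' median log2 fold change was -0.71 without control 2 (-0.71 also with the same 79 miRNAs), -0.69 without activin 2 and -0.28 without the 2 dimmest arrays, and ranged from -0.71 to -0.36 when 1 array was left out. The difference in summed share ranged from -11.4 to -2.08 points when 1 array was left out and was -0.63 with normexp (5.16% against 4.53%).

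The number of tested miRNAs past the threshold, 1 as reported, was 0 under 25 alternatives. These were each of the other scalings, normexp, the software's miRNA signal or detection call, the brightest probe, medians over spots, a floor at 2 times the level, no filter or detection on all 6 arrays, slide row as a block, and leaving out the 2 dimmest arrays or single arrays (0 to 1). It was 2 without the 2 dimmest arrays when the same miRNAs were tested, an alternative added after the data were seen, as were the software detection call and the other fits on the same miRNAs. The cause was not tested. Whether replicate numbers pair the samples could not be settled. The correlation of same-numbered deviations was -0.64, -0.09 and 0.34. Between control 1 and activin 2, the 2 dimmest arrays, it was 0.55, so differences in brightness could hide a pairing. The fit with a replicate block called 1, and gave the members a median of -0.43 and a summed share difference of -8.09 points, with no member past the threshold. Low signal limits miR-295 on activin 2, where miR-291a-3p and miR-294 were detected by their brightest probe alone.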
